A study of Homo sapiens with 18 samples.

Results

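RNA-seq of ZR751shMLL3 and ZR751shLucif cells makes up 4 of the 18 samples of the series, 2 per cell line, chosen by the cell line and assay in their labels and not by any measured value. ZR751 is an established ER+ breast cancer line, also written ZR75-1. ZR751shMLL3 cells stably carry a short hairpin that targets MLL3, and ZR751shLucif cells, called the controls here, carry one that targets luciferase. Both hairpins were delivered by lentivirus, and both lines were sorted by flow cytometry for GFP and propidium iodide staining. Both grew at early passages in serum and insulin without further treatment. The hairpin, with its own lentiviral insertion, is a labelled difference between the lines, and passage is another. A single MLL3 hairpin was used, which limits the model, and the ZR751shMLL3 samples came from later passages by the study's sample descriptions, so hairpin and passage cannot be told apart. Total RNA was depleted of ribosomal RNA and sequenced as paired reads, and expression is given as FPKM, fragments counted per length of transcript and per depth of the library. The study's methods call the RNA samples of a line biological replicates, without saying whether they were separate cultures, and p-values measure the spread between these samples.

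MLL3, now named KMT2C, is a histone methyltransferase that places a single methyl group on a lysine of histone H3, a mark of enhancers. It works in a large complex with the core subunits WDR5, RBBP5, ASH2L and DPY30 and with the demethylase KDM6A. In luminal breast cells, enhancers of this kind are opened by FOXA1 and GATA3 and bound by ERα, and KMT2C is frequently mutated in breast cancer.

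The hairpin is shown first because it defines the comparison. The sense strand of its stem matches KMT2C messenger RNA in exon 55 of 59 of the longest matching GENCODE transcript, within the coding sequence, at chr7:151841880-151841900 of GRCh37 on the minus strand. The stretch was found in 27 of the 70 annotated KMT2C transcripts and in transcripts of no other gene.

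Hairpin target in KMT2C: cgcaccttatagtaaacagtt

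KMT2C itself was at 2.34 and 6.77 FPKM in the controls against 1.07 and 2.69 in ZR751shMLL3. ZR751shMLL3 replicate 2 thus lay above ZR751shLucif replicate 1, and the cell lines overlapped. The log2 fold change, ZR751shMLL3 minus ZR751shLucif on the scale of log2(FPKM + 0.5), was -1.02 (SE 0.544, limma adjusted p = 0.629). It was -0.35 without ZR751shLucif replicate 2 and -1.70 without ZR751shLucif replicate 1. The lower level of the target in the knockdown line was therefore not distinguishable from the spread between these samples. The study also assessed the knockdown by qPCR and reported a difference in MLL3 by t-test. Those values are not part of the data used here.

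Of the 15 other MLL/COMPASS subunits tested, 1 was above and 4 were below both control samples in both ZR751shMLL3 samples. These were 6.67 and 26.7%, beside 17.6 and 25.3% of all genes tested, and the median log2 fold change was -0.14. ASH2L, a core subunit, had 63.7 and 63.3 FPKM in the controls against 50.4 and 49.1 in ZR751shMLL3 (log2 fold change -0.35, limma adjusted p = 0.685). KDM6A, which removes repressive methyl groups from histone H3, had 6.16 and 5.95 FPKM in the controls against 4.68 and 5.61 in ZR751shMLL3. KMT2B, a related methyltransferase that acts at promoters, had 6.80 and 8.56 against 11.6 and 10.8 FPKM (log2 fold change 0.53, limma adjusted p = 0.629), and 0.17 after removal of the trend on transcript GC content.

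The samples carried the markers of a luminal line. All 8 luminal markers were present at 10.8 to 4809 FPKM in every sample, including ESR1, GATA3, FOXA1, EPCAM and CDH1. Of 15 markers of basal, fibroblast, immune, endothelial and fat cells, 13 were under 1 FPKM in all 4 samples. Their summed level was 14.6 to 19.5 FPKM in the controls against 19.0 to 19.7 in ZR751shMLL3, nearly all of it COL1A1. CD14, a monocyte receptor, was the other exception, with 0.266 and 0.611 against 1.41 and 1.34 FPKM.

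Features of the 4 samples moved with the comparison and are given before it. Genes with a mean log2(FPKM + 0.5) above 1 were tested, 11134 in all. Across them, ZR751shLucif replicate 1 correlated with the others at 0.900 to 0.907, and the others correlated with each other at 0.947 to 0.969. The median gene differed by 0.444 (log2) between the ZR751shLucif samples, by 0.21 between the ZR751shMLL3 samples and by 0.3 between the means of the lines. The difference between the lines also followed the GC content of the transcript. When the genes were divided into 10 equal groups by GC content, in the lowest group both ZR751shMLL3 samples were above both controls for 2.16% of the genes and below for 53.7%, and in the highest group for 46.1 and 2.73%. The counts of some gene groups are therefore also given with this trend removed from each sample. Where they are not, the counts may carry this trend. The part of GC content in the results was not tested.

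**Figure D1:**
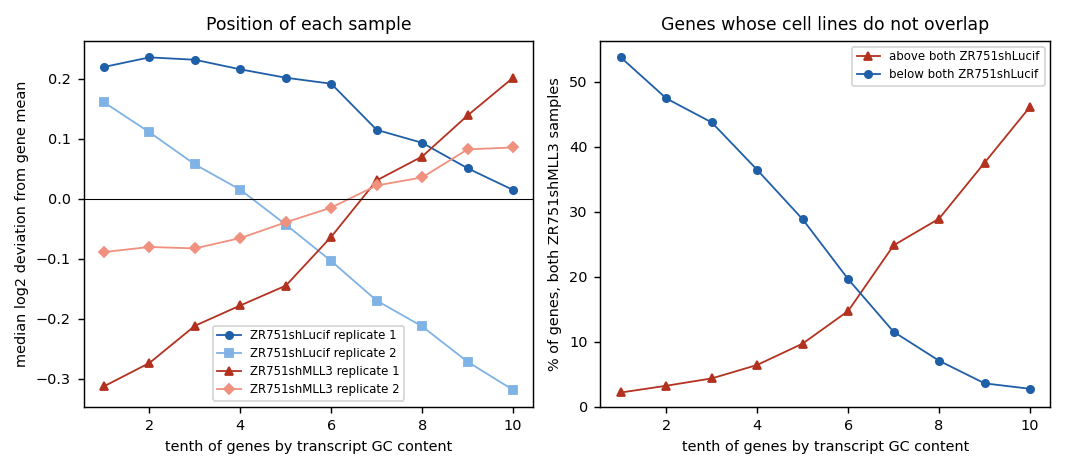
Left, median log2 deviation of each sample from the gene's mean over the 4 samples, in 10 equal groups of genes by transcript GC content. Right, share of genes in each group whose ZR751shMLL3 samples were both above or both below both ZR751shLucif samples, which runs from 2.16 to 46.1% for genes above and from 53.7 to 2.73% for genes below.

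In the limma fit 0 genes (0%) passed an adjusted p of 0.05 with a higher level after MLL3 knockdown, and 1 (0.00898%) with a lower one. By unadjusted p at the same threshold limma gave 409 genes higher (3.67%) and 480 lower (4.31%). Without ZR751shLucif replicate 2 the calls by adjusted p were 353 higher and 916 lower. With each sample centred on its median the genes by unadjusted p were 629 and 459, and with quantile normalization 625 and 528. Agreement of the samples was therefore also described without a test. Both ZR751shMLL3 samples were above both ZR751shLucif samples for 1959 genes (17.6%), and below for 2813 (25.3%). With the GC trend removed these were 1506 (14.2%) and 2228 (21.0%) of 10631 genes, and without ZR751shLucif replicate 1 they were 4603 (41.3%) and 4147 (37.2%). A gap of at least 2-fold in every pair of samples, on the log2(FPKM + 0.5) scale, was found for 60 genes above (0.539%) and 58 below (0.521%). Over all genes tested the log2 fold change had a median of -0.10.

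**Figure D2:**
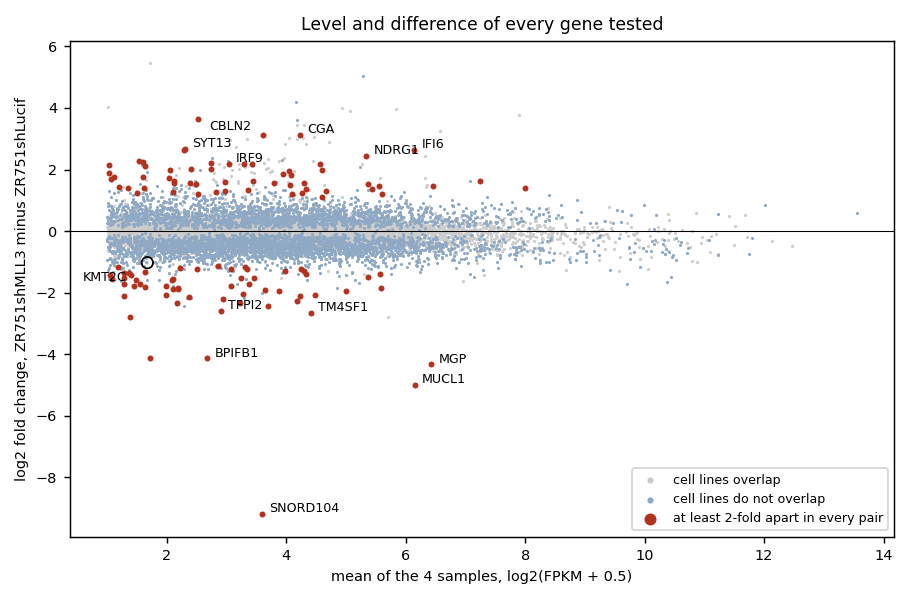
Log2 fold change of each of the 11134 genes tested against its mean level over the 4 samples. Red points are the 60 genes above and 58 below by at least 2-fold in every pair of samples, blue points the other genes whose cell lines did not overlap, and the open circle is KMT2C at -1.02.

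The gene called lower was SNORD104, a C/D box small nucleolar RNA, a class that guides methylation of ribosomal RNA. It had 236 and 358 FPKM in the controls and was listed at 0 in both ZR751shMLL3 samples (limma adjusted p = 0.000588). No fold is given against values listed at 0. The gene covers chr17:62223443-62223512 of GRCh37 on the plus strand, within SNHG25 and outside its annotated exons. Its sequence is printed because it is the single call, with the C box motif GTGATGA and the last CTGA, the D box motif, in capitals.

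SNORD104: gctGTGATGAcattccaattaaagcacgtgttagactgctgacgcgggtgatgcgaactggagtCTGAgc

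Values of such short RNAs were unstable in these samples. Of 371 entries for small structural RNAs, 342 and 275 were listed at 0 in the controls against 303 and 292 in ZR751shMLL3, also where the RNA is one that every cell makes. SNORD104 was the single small RNA tested that was listed at 0 in both ZR751shMLL3 samples and above 0 in both controls. SNORA3A, which guides pseudouridylation, showed the reverse order with 0 and 4.83 against 20.0 and 19.4 FPKM (limma adjusted p = 0.496).

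Among the 15 genes with the widest gap below the controls, MUCL1, MGP, TFPI2, CXCL17, BPIFB1 and LCN2 encode secreted proteins, and TM4SF1 and EMP1 encode proteins that span the membrane. None passed the adjusted p, which ran from 0.148 to 0.418 over these genes and the 15 widest in the other direction, although every one of the 30 had separated samples by the rule that chose them. Calls among the 30 depended on the fit. With a term for replicate number 24 passed, although the numbers did not pair the samples. A fit without ZR751shLucif replicate 2 rests on a lone control. Since the genes were chosen for their gap in these same values, such calls are no support for them. The last gene of this 15, GCNT1, had a gap of 1.54 (log2), and the next gene outside had 1.51.

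MUCL1, a small mucin-like protein of breast and sweat glands, had 570 and 282 FPKM in the controls against 8.21 and 17.7 in ZR751shMLL3 (log2 fold change -5.00, SE 0.488, limma adjusted p = 0.148). MGP, matrix Gla protein, an inhibitor of calcification, had 858 and 173 FPKM in the controls against 12.3 and 28.3 in ZR751shMLL3 (log2 fold change -4.33, SE 0.772, limma adjusted p = 0.317). Without ZR751shLucif replicate 1, which had the higher value of both genes, their log2 fold changes were -4.49 and -3.18.

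BPIFB1, an airway and gland secretory protein, had 70.8 and 9.53 against 1.86 and 0.486 FPKM. The samples of the lines were apart, but the controls differed several-fold from each other.

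TFPI2, an inhibitor of serine proteases, was even within each line, with 18.2 and 17.8 FPKM in the controls against 2.85 and 2.27 in ZR751shMLL3 (log2 fold change -2.60, SE 0.270, limma adjusted p = 0.148). EMP1 was likewise even, with 4.47 and 4.71 against 0.753 and 0.597 FPKM. CNN3, an actin-binding calponin, had 29.7 and 27.3 against 6.82 and 7.14 FPKM. In these genes the samples of a line lay close together and far from the other line.

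CLGN, a chaperone of the endoplasmic reticulum, had 32.9 and 46.5 FPKM in the controls against 8.28 and 7.14 in ZR751shMLL3. ERP27, a further protein of that compartment, had 50.7 and 40.8 against 9.18 and 11.9 FPKM. TM4SF1 had 63.2 and 43.8 against 6.01 and 10.5 FPKM. Other genes of this group were CXCL17, a mucosal chemokine, LCN2, an iron-siderophore carrier, CSTA, a cysteine protease inhibitor, FAM241A and GCNT1, a glycosyltransferase that branches O-glycans, with log2 fold changes of -2.80, -2.09, -2.34, -1.91 and -1.79.

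**Figure D3:**
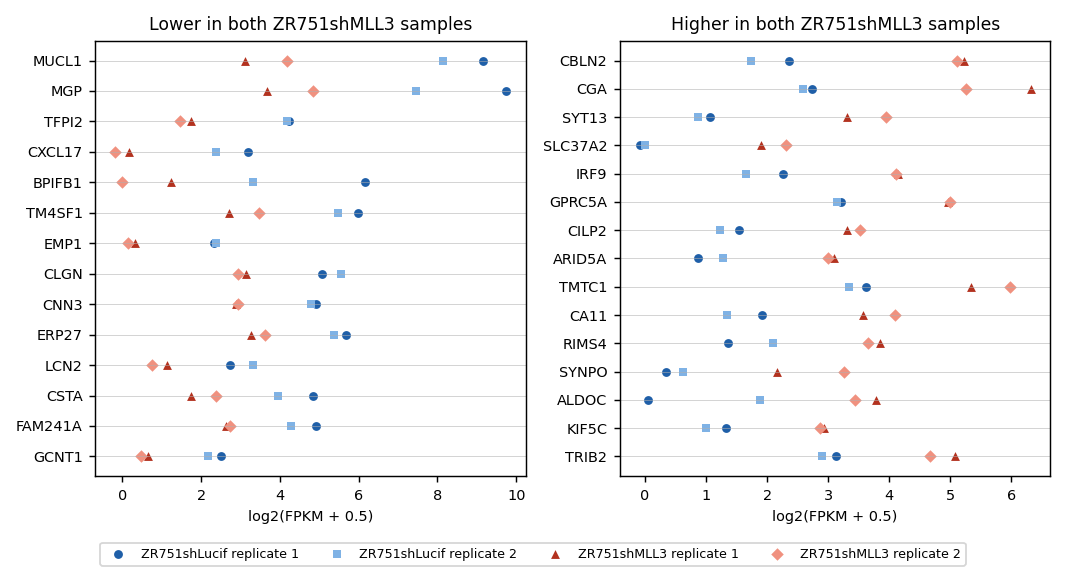
Log2(FPKM + 0.5) in the 4 samples for genes with the widest gap between the cell lines, 14 that were lower in ZR751shMLL3 on the left and 15 that were higher on the right. Each point is 1 sample, and in each row the red and blue points are apart by at least 1.53 on the log2 scale because the genes were chosen for it.

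The 15 genes with the widest gap above the controls are given next. CBLN2, a secreted organizer of synapses, had 4.65 and 2.85 FPKM in the controls against 37.0 and 34.2 in ZR751shMLL3 (log2 fold change 3.12, SE 0.314, limma adjusted p = 0.148). CGA, the shared alpha subunit of the glycoprotein hormones, had 6.17 and 5.53 against 79.4 and 37.6 FPKM (log2 fold change 3.12, SE 0.399, limma adjusted p = 0.231). SYT13, a synaptotagmin, had 1.58 and 1.33 against 9.42 and 14.9 FPKM. RIMS4, a protein of the presynaptic active zone, had 2.06 and 3.80 against 13.9 and 12.1 FPKM, and KIF5C, a neuronal kinesin, 2.02 and 1.503 against 7.09 and 6.79.

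The other genes of the 15 included regulators, membrane proteins and enzymes. GPRC5A, a retinoic acid-induced orphan receptor, had 8.72 and 8.30 FPKM against 30.7 and 31.4, with little spread within either line. ARID5A, an RNA-binding protein that stabilizes inflammatory transcripts, had 1.32 and 1.91 against 8.07 and 7.49 FPKM. TRIB2, a pseudokinase, had 8.28 and 6.97 against 33.4 and 24.8 FPKM. SLC37A2, a sugar-phosphate exchanger, CILP2, TMTC1, an O-mannosyltransferase, CA11, a carbonic anhydrase-related protein, and SYNPO, an actin-associated protein, had log2 fold changes of 2.15, 2.03, 2.18, 2.21 and 2.23. Median GC content was 55.1% for the 14 of the 15 with a known transcript and 42.6% for the 15 lower genes, beside 48.9% over all genes tested. With the GC trend removed the log2 fold changes of CBLN2, CGA and SYT13 were 3.16, 3.30 and 2.73, and those of CILP2 and ARID5A were 1.61 and 1.61.

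Many interferon-induced genes lay above the controls in ZR751shMLL3, none by enough to pass the test. Of 43 genes listed, 26 were tested, 0 passed limma's adjusted p, 9 had an unadjusted p under 0.05 with a positive change, and 14 (53.8%, beside 17.6% of all genes) were above both controls in both ZR751shMLL3 samples. None was below both, and the median log2 fold change was 0.61. With the GC trend removed 15 were above and 0 below, beside 14.2 and 21.0% of all genes. Without ZR751shLucif replicate 1, where a single control is easier to clear, 23 were above and 1 below. All genes then had 41.3 and 37.2%. IRF9, the DNA-binding subunit of the ISGF3 complex that drives these genes, had 4.27 and 2.64 FPKM in the controls against 17.2 and 16.7 in ZR751shMLL3 (log2 fold change 2.17, SE 0.309, limma adjusted p = 0.231). ISG15, a ubiquitin-like modifier, had 3.46 and 5.96 against 32.4 and 15.6 FPKM (log2 fold change 2.19, SE 0.436, limma adjusted p = 0.402).

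Besides these, IFIT5 and IFI6 were at least 2-fold apart in every pair of samples and are named after their values were seen. IFIT5, a sensor of foreign RNA, had 1.44 and 1.31 against 4.92 and 4.08 FPKM. IFI6, a mitochondrial and reticulum protein, had 44.9 and 17.0 FPKM in the controls against 300.2 and 103 in ZR751shMLL3, so that the samples of each line differed by more than 2-fold. Other members overlapped between the lines. USP18, the protease that removes ISG15, had 10.2 and 12.4 against 10.99 and 9.33 FPKM, and IFITM2 103 and 64.9 against 70.2 and 89.0.

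Promoters of the interferon-induced genes were searched for GAAANNGAAA on both strands, the core of the interferon-stimulated response element, in the RefSeq windows from 250 bases before to 50 after each start (GRCh38.p14). The motif was in 3.65% of all promoters of this length, in 2.43% of the 8800 with a gene tested here, and in 12 of 21 interferon-induced genes with an entry. Among the 12 with the motif 6 were above both controls and the median log2 fold change was 0.71, and among the 9 without it 5 were above and the median was 0.56. Genes above both controls were thus found with and without these letters. ISG15 (chr1:1013247-1013546, plus strand) and IFI6 (chr1:27672143-27672442, minus strand) are printed as examples of high members with the motif, in capitals, whose overlapping matches run together, while the IRF9 window held no match.

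ISG15 promoter: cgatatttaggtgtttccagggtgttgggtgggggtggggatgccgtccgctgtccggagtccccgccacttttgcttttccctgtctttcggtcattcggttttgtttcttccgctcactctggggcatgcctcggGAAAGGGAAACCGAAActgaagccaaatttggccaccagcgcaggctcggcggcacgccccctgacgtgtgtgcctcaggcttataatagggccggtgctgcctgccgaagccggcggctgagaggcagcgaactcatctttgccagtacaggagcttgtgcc
IFI6 promoter: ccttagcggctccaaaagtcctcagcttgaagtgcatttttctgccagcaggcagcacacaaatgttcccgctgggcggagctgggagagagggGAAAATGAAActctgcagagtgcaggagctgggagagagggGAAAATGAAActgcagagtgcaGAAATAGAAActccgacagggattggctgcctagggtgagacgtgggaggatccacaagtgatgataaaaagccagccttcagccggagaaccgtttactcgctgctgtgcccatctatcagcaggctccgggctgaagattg

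Antigen presentation and NF-κB target genes also had positive medians. Of 16 antigen presentation genes tested, 0 passed limma's adjusted p and 6 had an unadjusted p under 0.05, all positive. Of these genes 9 (56.2%, beside 17.6% of all genes) were above both controls and 0 below, and the median log2 fold change was 0.54. HLA-B, a heavy chain of MHC class I, had 47.8 and 57.4 FPKM in the controls against 153 and 135 in ZR751shMLL3 (log2 fold change 1.45, SE 0.273, limma adjusted p = 0.354). HLA-F, a related heavy chain, had 10.3 and 11.2 against 25.8 and 22.4 FPKM. Reads can be shared among the closely similar HLA genes, which makes the split between them uncertain. PSMB10 and PSMB8, catalytic subunits of the immunoproteasome, had log2 fold changes of 1.05 and 0.75. CANX, a chaperone that folds the heavy chains, had 195 and 259 against 179 and 221 FPKM, and TAP2, part of the peptide transporter, 8.18 and 8.96 against 8.31 and 8.66.

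Of 10 NF-κB target genes tested, 0 passed limma's adjusted p and 4 had an unadjusted p under 0.05, while 5 (50.0%, beside 17.6% of all genes) were above both controls and 0 below. Their median log2 fold change was 0.51, and 0.28 with the GC trend removed. TNFRSF18, a receptor of the tumour necrosis factor family, had 7.35 and 7.88 against 24.7 and 21.8 FPKM. RELB, a subunit of the alternative NF-κB pathway, had 4.32 and 4.54 against 13.4 and 9.24 FPKM (log2 fold change 1.24, SE 0.296, limma adjusted p = 0.468). NFKB1, of the classical pathway, had 5.80 and 5.13 against 5.29 and 4.73 FPKM.

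All 23 glycolysis genes were tested. Of them 0 passed limma's adjusted p and 4 had an unadjusted p under 0.05, while 10 (43.5%, beside 17.6% of all genes) were above both controls and 0 below, and 21 had a positive log2 fold change, with a median of 0.60. With the GC trend removed 13 were above, beside 14.2% of all genes, and without ZR751shLucif replicate 1 the median was 0.26. ALDOC, the brain form of aldolase, had 0.531 and 3.21 FPKM in the controls against 13.3 and 10.4 in ZR751shMLL3 (log2 fold change 2.65, SE 0.589, limma adjusted p = 0.418). SLC16A3, the lactate exporter, had 99.0 and 124 against 282 and 205.5 FPKM. PFKM, the muscle form of phosphofructokinase, had 25.2 and 12.9 against 12.7 and 14.5 FPKM. The plot of 3 gene lists shows that ZR751shLucif replicate 1 was low and ZR751shMLL3 replicate 1 high for most glycolytic genes.

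The values of hypoxia targets depended on the same control sample. Of 25 tested, 5 were above both controls and 1 below (20.0 and 4.0%, beside 17.6 and 25.3% of all genes), with a median log2 fold change of 0.31 that became -0.09 without ZR751shLucif replicate 1. NDRG1, a stress-response protein, had 7.26 and 37.9 FPKM in the controls against 94.3 and 93.5 in ZR751shMLL3. ANGPTL4, an inhibitor of lipoprotein lipase, had 7.20 and 18.9 against 51.7 and 43.5 FPKM. HIF1A, the oxygen-regulated factor itself, ran the other way with 94.6 and 48.2 against 29.3 and 32.5 FPKM (log2 fold change -1.12, limma adjusted p = 0.595).

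**Figure D4:**
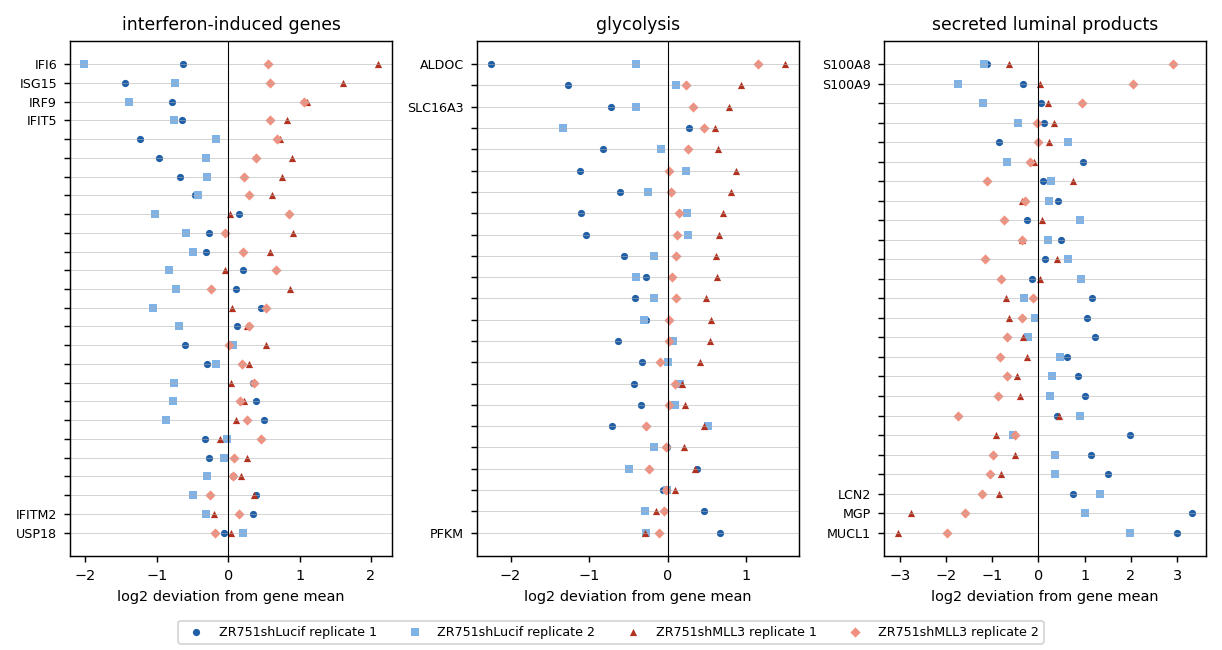
Log2 deviation of each sample from the gene's mean over the 4 samples, for the tested interferon-induced genes (26), glycolysis genes (23) and secreted luminal products (25), ordered by log2 fold change, with names for the genes described in the text. Red points, ZR751shMLL3, lie to the right of both blue points, ZR751shLucif, for 14 interferon-induced and 10 glycolysis genes, and to the left for 12 secreted products.

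Products that luminal cells secrete formed the list with the most negative median. Of 25 tested, 0 passed limma's adjusted p, 1 and 9 had an unadjusted p under 0.05 above and below, 3 were above both controls and 12 (48.0%, beside 25.3% of all genes) below, and 20 had a negative log2 fold change, with a median of -0.83. With the GC trend removed 13 were below, beside 21.0% of all genes. Without ZR751shLucif replicate 1 17 were below, beside 37.2% of all genes, and the median was -0.55. MUCL1 and MGP, given above, led this list. S100A8 and S100A9, partner calcium-binding proteins of inflammation, ran the other way, with 3.25 and 3.08 against 4.72 and 60.7 FPKM for S100A8 and 29.4 and 10.7 against 38.3 and 155 for S100A9, so that ZR751shMLL3 replicate 2 set their means. In bulk RNA, fewer cells that make such a product and less RNA per cell cannot be told apart.

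Luminal transcription factors and markers leaned the same way as the secreted products, but less, and in a way that depended on the control sample. Of 24 tested, 3 were above and 8 below both controls (12.5 and 33.3%, beside 17.6 and 25.3% of all genes). With the GC trend removed 1 was above and 8 below, beside 14.2 and 21.0% of all genes. The median log2 fold change was -0.14, with 0.03 without ZR751shLucif replicate 1 and -0.40 without replicate 2. ESR1, which encodes ERα, had 11.2 and 14.2 FPKM in the controls against 12.1 and 10.8 in ZR751shMLL3 (log2 fold change -0.14, SE 0.278, limma adjusted p = 0.875). GATA3 had 212 and 140 against 259 and 206.3 FPKM. FOXA1, a pioneer factor for ERα, had 173 and 102 against 76.8 and 93.7 FPKM (log2 fold change -0.65, limma adjusted p = 0.629). AGR2, a disulfide isomerase of secretory cells, had 1378 and 810 against 516 and 372 FPKM, and KRT7, a simple-epithelial keratin, 20.5 and 11.8 against 4.89 and 5.22. The abundant keratins KRT8, KRT18 and KRT19 overlapped between the lines, with 1002 to 4809 FPKM in the controls against 1988 to 4114 in ZR751shMLL3.

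Estrogen-induced genes lay above and below the controls in shares near those of all genes. Of 25 tested, 5 were above and 7 below both controls (20.0 and 28.0%, beside 17.6 and 25.3% of all genes), with a median log2 fold change of -0.09 that became 0.13 without ZR751shLucif replicate 1. PRLR, the prolactin receptor, had 17.1 and 21.4 FPKM in the controls against 2.92 and 6.13 in ZR751shMLL3 (log2 fold change -2.04, SE 0.384, limma adjusted p = 0.354). PDZK1, a scaffold protein, had 13.1 and 5.10 against 1.59 and 2.18 FPKM. EGR3, a zinc finger factor, was opposite with 7.15 and 2.27 against 16.7 and 24.5 FPKM, as was HSPB8, a small chaperone, with 30.3 and 16.3 against 49.9 and 65.2.

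Among 9 tested ERBB receptors, ligands and feedback genes, 2 were above and 2 below both controls, 22.2% each way, which is near the 17.6 and 25.3% of all genes. DUSP4, a phosphatase that switches off MAP kinases, had 60.1 and 45.0 against 23.7 and 15.1 FPKM (log2 fold change -1.44, SE 0.335, limma adjusted p = 0.454). SPRY1, an inhibitor of receptor tyrosine kinase signalling, had 3.78 and 5.49 against 2.32 and 2.55 FPKM. ERRFI1, a further feedback inhibitor, overlapped between the lines with 8.33 and 10.6 against 9.72 and 10.1 FPKM, and is named after its values were seen. EGFR had 1.27 and 2.19 against 2.41 and 2.47 FPKM.

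Of 31 PI3K, AKT and mTOR components, 3 were above and 5 below both controls (9.68 and 16.1%, beside 17.6 and 25.3% of all genes). With the GC trend removed 0 of 30 were above and 5 below, beside 14.2 and 21.0% of all genes. The median log2 fold change was 0.02. PIK3R1, the regulatory subunit that restrains PI3K, had 16.8 and 10.2 FPKM in the controls against 4.17 and 6.01 in ZR751shMLL3 (log2 fold change -1.30, SE 0.352, limma adjusted p = 0.495). DEPTOR, an inhibitor within mTOR complexes, had 9.95 and 6.55 against 3.95 and 3.76 FPKM. AKT1 had 225 and 219 against 288 and 264 FPKM (log2 fold change 0.31, limma adjusted p = 0.706), and 0.00 with the GC trend removed.

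In the TGF-β, WNT, Notch and immediate early lists, single genes stood apart while list medians stayed between -0.15 and 0.15. BAMBI, a decoy receptor for TGF-β, had 79.6 and 73.4 FPKM in the controls against 24.8 and 33.3 in ZR751shMLL3 (log2 fold change -1.40, SE 0.286, limma adjusted p = 0.402). WNT9A, a WNT ligand, had 4.15 and 7.82 against 19.8 and 17.5 FPKM. HEY2, a Notch target, varied within both lines, with 12.9 and 4.22 against 3.20 and 0.957 FPKM. BTG2, an antiproliferative early gene also induced by p53, had 46.6 and 43.7 against 26.4 and 18.9 FPKM.

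Among SP and KLF factors, which bind GC-rich boxes, 2 of 17 were above and 7 below both controls (11.8 and 41.2%, beside 17.6 and 25.3% of all genes), and the median log2 fold change was -0.30. KLF5, a factor of epithelial growth, had 14.5 and 15.4 FPKM in the controls against 6.44 and 5.83 in ZR751shMLL3 (log2 fold change -1.22, SE 0.262, limma adjusted p = 0.418). KLF3, a repressor, had 18.0 and 17.0 against 9.38 and 11.6 FPKM. KLF13 was opposite, with 8.65 and 7.39 against 14.8 and 14.4 FPKM. With the GC trend removed 1 of the list was above and 8 were below, beside 14.2 and 21.0% of all genes.

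Mesenchymal and matrix genes had 8 of 17 above and 2 below both controls (47.1 and 11.8%, beside 17.6 and 25.3% of all genes), with a median log2 fold change of 0.30. TIMP1, an inhibitor of matrix metalloproteinases, had 29.1 and 21.95 against 80.5 and 52.9 FPKM (log2 fold change 1.35, SE 0.329, limma adjusted p = 0.475). Epithelial junction genes had 7 of 30 above and 10 below (23.3 and 33.3%), with a median of -0.12. CLDN1, a tight junction protein, had 33.6 and 18.0 against 8.50 and 13.5 FPKM, while PKP3, a desmosome plaque protein, had 15.9 and 18.2 against 35.0 and 33.9. CDH1, E-cadherin, had 247 and 267 against 268 and 283 FPKM, and in the actin list CORO1C, a coronin, had 11.1 and 13.7 against 5.17 and 4.80.

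Of 24 genes of cholesterol synthesis and uptake, 8 (33.3%, beside 17.6% of all genes) were above both controls and 0 below, with a median log2 fold change of 0.28 that became -0.0091 without ZR751shMLL3 replicate 1. LSS, lanosterol synthase, had 17.2 and 18.8 FPKM in the controls against 48.8 and 32.4 in ZR751shMLL3 (log2 fold change 1.12, SE 0.308, limma adjusted p = 0.495). Of 31 fatty acid genes 10 were above and 4 below (32.3 and 12.9%). With the GC trend removed 5 were above and 2 below, beside 14.2 and 21.0% of all genes. AGPAT2, which makes phosphatidic acid, had 39.7 and 37.9 against 74.7 and 83.2 FPKM, and ACSL3, a fatty acid-CoA ligase, 92.0 and 46.3 against 25.3 and 34.9. In the amino acid list SLC7A5, the leucine transporter, had 262 and 405 against 680 and 644 FPKM, and GLUL, glutamine synthetase, 291 and 193 against 102 and 68.8.

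The list medians of the machinery of RNA and protein synthesis depended mainly on a control sample. Cytosolic ribosomal proteins had 2 of 73 genes above and 32 below both controls (2.74 and 43.8%, beside 17.6 and 25.3% of all genes), and a median log2 fold change of -0.47. Relative to the gene means, their median was 0.62 in ZR751shLucif replicate 1, and -0.16, -0.24 and -0.18 in ZR751shLucif replicate 2 and the ZR751shMLL3 replicates. With that control left out the median was -0.07, with 22 above and 34 below, beside 41.3 and 37.2% of all genes. Ribosome biogenesis factors, splicing factors, translation factors and mitochondrial ribosomal proteins showed the same arrangement, with medians of -0.41, -0.37, -0.37 and -0.31 that became -0.02, -0.08, -0.09 and 0.01 without that sample. With all samples 1 splicing factor was above and 26 below (1.75 and 45.6%), beside 17.6 and 25.3% of all genes. For translation factors the counts were 1 and 20 (2.13 and 42.6%). Without ZR751shLucif replicate 1, 14 of 57 splicing factors were above and 31 below, and 12 and 25 of 47 translation factors. All genes then had 41.3 and 37.2%, so these lists still had more genes below than above. Ribosome biogenesis factors were even at 18 each way, and mitochondrial ribosomal proteins at 27.

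Heat shock proteins and the chaperonin followed this arrangement in part. Of 35 tested, 4 were above and 19 below both controls (11.4 and 54.3%, beside 17.6 and 25.3% of all genes). The median log2 fold change was -0.47, and -0.08 without ZR751shLucif replicate 1. Without that sample 8 were above and 21 still below, beside 41.3 and 37.2% of all genes. HSPA9, a mitochondrial chaperone that helps import proteins, had 222 and 180 FPKM against 114 and 113, and HSPH1, a nucleotide exchange factor of the cytosolic chaperones, 46.7 and 34.2 against 19.2 and 23.1. BAG3, a partner of HSPB8 in chaperone-assisted autophagy, ran the other way like HSPB8, with 53.3 and 29.3 against 113 and 83.1 FPKM.

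Mitosis genes varied as much within the lines as between them. Of 46 tested, 0 were above and 9 below both controls (0 and 19.6%, beside 17.6 and 25.3% of all genes). With the GC trend removed 0 were above and 4 below, beside 14.2 and 21.0% of all genes. Their median deviations were -0.24 and 0.47 in the controls against 0.16 and -0.44 in ZR751shMLL3. The median log2 fold change of -0.22 became 0.18 without ZR751shLucif replicate 2 and -0.60 without replicate 1. MAD2L1, a spindle checkpoint protein, had 58.6 and 65.6 against 41.3 and 31.5 FPKM, and CKS1B, a subunit of cyclin-dependent kinases, 334 and 359 against 253 and 198. Among G1/S regulators CDKN1C, the inhibitor p57, stood apart with 1.22 and 0.941 against 3.69 and 3.55 FPKM (log2 fold change 1.39, SE 0.269, limma adjusted p = 0.362).

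Of 25 subunits of chromatin remodellers 4 were above and 5 below both controls (16 and 20.0%). Of 24 Polycomb and heterochromatin genes 6 were above and 8 below (25.0 and 33.3%). Both lists stand beside 17.6 and 25.3% of all genes. With the GC trend removed 2 remodellers were above and 4 below, and 1 and 8 of the Polycomb list. All genes then had 14.2 and 21.0%. SUZ12 and EZH2, core subunits of the Polycomb repressive complex that methylates histone H3, had 34.2 and 32.0 against 20.97 and 21.4 FPKM and 17.9 and 21.8 against 12.8 and 10.8. Their log2 fold changes were -0.63 and -0.72 (limma adjusted p = 0.613 and 0.605). DNMT3A, a de novo DNA methyltransferase, had 4.59 and 4.39 against 6.77 and 8.66 FPKM.

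Replication-dependent histone genes, whose messages lack a poly(A) tail, had the widest spread between samples of any list besides the small structural RNAs. Of 48 tested, 0 were above and 0 below both controls, beside 17.6 and 25.3% of all genes. Their median deviation from the gene mean was -3.13 in ZR751shLucif replicate 1, 1.73 in replicate 2, and 0.30 and 0.98 in ZR751shMLL3. The medians of the controls thus lay on either side of those of ZR751shMLL3. The median log2 fold change was 1.30, and -1.07 without ZR751shLucif replicate 1. The small structural RNAs were arranged alike, with -3.16 and 1.88 against 0.65 and 1.52.

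**Figure D5:**
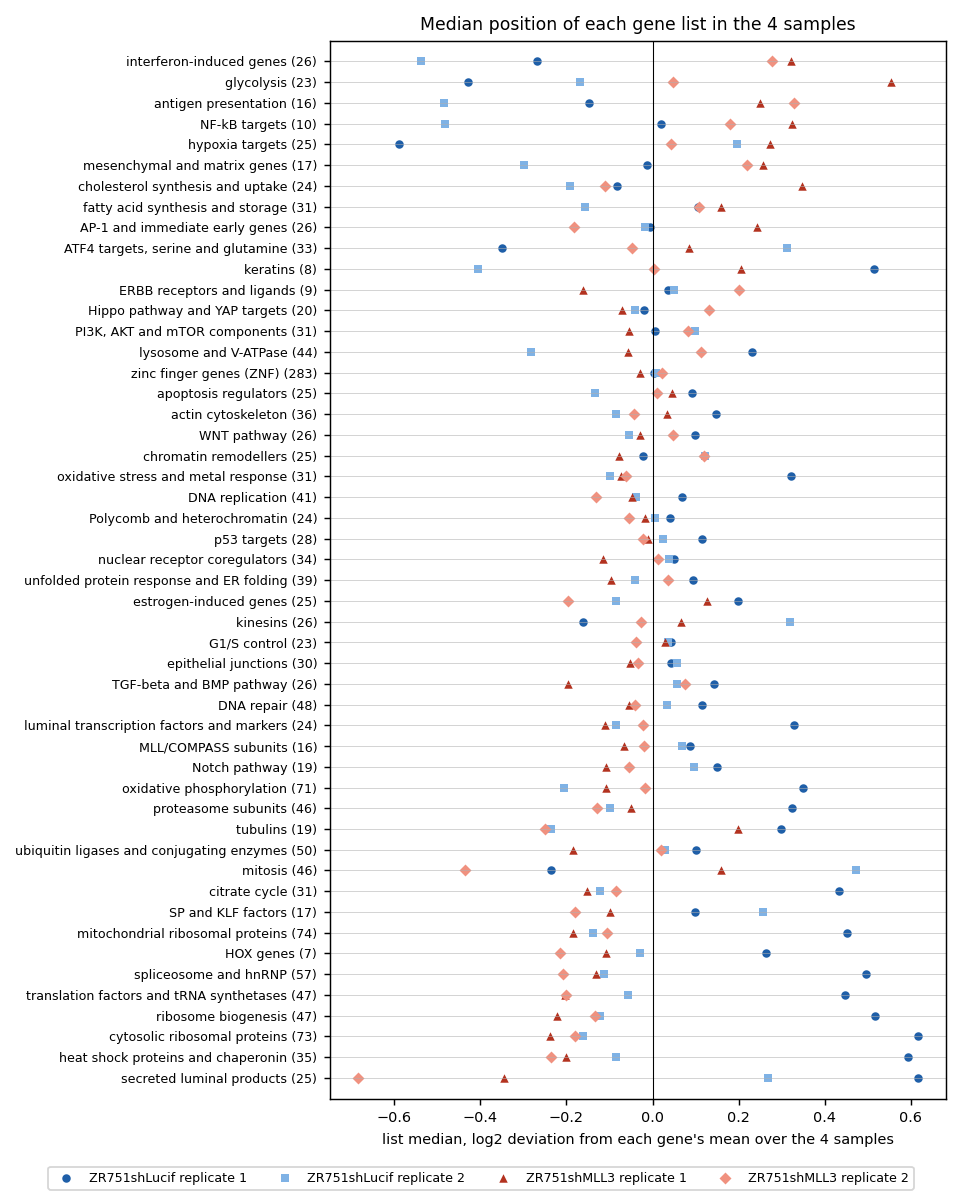
Median log2 deviation from the gene means in each of the 4 samples, for 50 gene lists ordered by median log2 fold change, with the number of genes tested in parentheses. Red and blue points are apart for several lists, among them interferon-induced genes, antigen presentation, NF-κB targets, glycolysis and secreted luminal products. For ribosomal, splicing and translation lists ZR751shLucif replicate 1 alone lies to the right of the other samples.

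The 2 chromosomes with the highest and lowest median GC content among those with genes tested are given. On chromosome 19, with a median transcript GC content of 60.4%, 31.7% of 770 genes were above both controls and 7.4% below. On chromosome 13, with 41.7%, 5.81% of 172 genes were above and 50.0% below. Over all genes tested these shares were 17.6 and 25.3%. The chromosome medians of the log2 fold change were 0.14 and -0.34, and -0.08 and -0.14 with the GC trend removed. Not every chromosome followed this order. On chromosome 21, with 48.6%, the median was -0.23 both before and after removal of the GC trend.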

How the data were processed

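RNA-seq was analysed for 2 ZR751shMLL3 and 2 ZR751shLucif samples. The authors deposited FPKM values per gene. According to the submitters' processing notes, FastQC 0.11.4, TopHat2 2.0.13, Cufflinks 2.2.1 and Cuffnorm 2.2.1 were used with hg19. Of the 23500 named entries, 97.42% carried a gene symbol. An entry without a name was dropped. The depth behind single genes is unknown, since FPKM steps gave no whole reads. ChIP-seq files were not used here.

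Values were analysed as log2(FPKM + 0.5), a scale that understates the change of low genes. Genes with a mean above 1 were tested with limma 3.58.1 (R 4.3.3) and Benjamini-Hochberg adjustment, with 0.05 as the threshold. The steps were tested on simulated data. GC content and length of transcripts were read from GENCODE v44lift37 and known for 95.5% of the genes. Groups were taken from the labels.

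Named genes were KMT2C, genes past the threshold, the 15 with the widest gap between the lines in each direction (small RNAs and genes listed at 0 throughout a line left out), the 2 with the widest gap per list and direction, and luminal markers. The genes and lists were chosen with earlier results of these data known. Alternatives were other pseudocounts (0.1 and 1), filters, scalings, a variance trend, a replicate block, a surrogate variable, GC and length trends and leaving out each sample. Counts of separated samples without ZR751shLucif replicate 1 and with the GC trend removed were added after seeing the data. Some genes that this rule gives are not reported here.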

Additional observations from a re-analysis of the deposited data

How the results depend on the processing

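No setting of pseudocount, scaling or variance trend moved the number of genes called beyond 0 higher and 1 lower, and without a filter or with the GC trend, or GC and length trends, removed 0 were lower. SNORD104 has no GC value and was not in the latter fits. The fit with the replicate block called 14 genes higher and 19 lower, 24 of them among the 30 genes with the widest gaps. The numbers did not pair the samples, since residuals of same-numbered samples correlated at 0.0374. With the first residual component removed 669 and 1013 were called. That component was taken from the spread within the lines, so its removal narrows this spread by construction. The test did not allow for the removal, so these calls and the separated genes of that setting are no measure of agreement. Genes separated by sample numbered 1287 above and 1858 below with the stricter filter, 3019 and 4100 without one, and 3489 and 5253 with the residual component removed. Leaving out 1 sample gave 0 to 353 genes called higher and 1 to 916 lower, 2730 to 4603 above and 3637 to 6088 below. Among these the most calls came without ZR751shLucif replicate 2, where the control is a lone sample assumed to vary like the other line. KMT2C kept a negative log2 fold change in all settings that gave a value. The medians of 21 of the 53 gene lists kept their sign in every setting. Among these were secreted luminal products and interferon-induced genes, but also cytosolic ribosomal proteins. The variance trend, the replicate block and the residual component leave each log2 fold change as it is, so they could not move a median. Depth limits of single genes are unknown.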
